A study of Rattus norvegicus with 96 samples.

Results

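NAc core and NAc shell were compared within 16 saline (SAL) rats, 8 males and 8 females, by RNA-seq of both subregions from each rat. The 32 libraries, 8 per sex and region, were chosen by their labels from 96, which also cover the VTA and rats given nicotine (NIC). The rats were F1 progeny of the inbred strains F344 and BN, bred in both cross directions. They received SAL at 1.0 ml/kg daily for 4 days, and tissue was harvested on day 17 by the labels. Both subregions were dissected by hand. The labels give neither the cross nor an age for each rat, and the study describes its F1 rats as young adults. Library totals lay between 15868529 and 23841019 counts, with a median of 19810245. Among these 32 libraries no prep batch held both sexes, and the titles put all males in box1 and all females in box3. Sex, box and prep batch therefore cannot be told apart in them, and 13 of the 16 pairs shared a batch.

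The nucleus accumbens is the ventral part of the striatum, and most of its neurons are GABAergic projection neurons that carry either the D1 or the D2 dopamine receptor. The core, around the anterior commissure, resembles the dorsal striatum in its inputs and its calbindin staining. The shell wraps around it on the medial and ventral sides, borders the septum, diagonal band and olfactory tubercle, and is known for its neuropeptides, its D3 receptors and its ties to the hypothalamus and extended amygdala. Dopamine from the VTA reaches both, and both respond to addictive drugs.

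The labels were first checked with defining genes. In CPM (counts scaled to a common library total), the summed level of 21 striatal projection neuron genes was 2728 to 12726 in core and 2541 to 8966 in shell, against 889 to 1099 in 16 VTA libraries. Th, the rate-limiting enzyme of dopamine synthesis, was at 409 to 901 CPM in VTA and at most 3.24 in core and 3.51 in shell, and Slc6a3, the dopamine transporter, at 543 to 1098 in VTA and at most 0.902 in core and 1.14 in shell. One rat stood apart. Male rat 1 had the lowest striatal sums of all, 2838 CPM in core and 2661 in shell after TMM scaling, where the next lowest were 3721 and 4669. Its 4 cholinergic genes summed to 2.57 and 4.26 CPM, against at least 5.42 and 13.4 in the other rats. Values without this rat are given for the number of genes called and, for the gene lists and single genes, where they changed a count or a call.

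Promoter sequences of 4 genes that the results below turn on are shown here, as the 250 bases before the start of each gene in RefSeq on GRCr8, 5′ to 3′ on the gene's strand. Capitals mark 3 motifs searched on both strands: GGGCGG, the core of the Sp1 site, TGACGTCA, the cAMP response element, and CCAAT. These motifs occur in 30.5%, 1.59% and 34% of 33469 windows of the same length. Chat and Slc18a3, the choline acetyltransferase and the vesicular acetylcholine transporter, form the cholinergic gene locus, in which the start of Slc18a3 lies 602 bases downstream of that of Chat on the same strand of chromosome 16. Cartpt (CART peptide) and Nmb (neuromedin B) encode neuropeptides that were higher in shell. The windows are chr16:7723417-7723666 for Chat, chr16:7722815-7723064 for Slc18a3, chr2:32991236-32991485 for Cartpt and chr1:144281423-144281672 for Nmb, all on the minus strand.
Chat: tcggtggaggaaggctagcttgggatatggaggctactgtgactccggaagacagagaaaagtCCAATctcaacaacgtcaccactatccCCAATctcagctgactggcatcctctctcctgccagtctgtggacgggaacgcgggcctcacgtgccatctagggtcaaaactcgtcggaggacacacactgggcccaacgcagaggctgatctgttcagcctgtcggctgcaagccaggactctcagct
Slc18a3: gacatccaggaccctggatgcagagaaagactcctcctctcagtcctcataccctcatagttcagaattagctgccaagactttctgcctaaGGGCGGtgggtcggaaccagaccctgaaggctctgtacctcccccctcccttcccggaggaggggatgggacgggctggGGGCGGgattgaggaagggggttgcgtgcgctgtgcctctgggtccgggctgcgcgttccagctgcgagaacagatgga
Cartpt: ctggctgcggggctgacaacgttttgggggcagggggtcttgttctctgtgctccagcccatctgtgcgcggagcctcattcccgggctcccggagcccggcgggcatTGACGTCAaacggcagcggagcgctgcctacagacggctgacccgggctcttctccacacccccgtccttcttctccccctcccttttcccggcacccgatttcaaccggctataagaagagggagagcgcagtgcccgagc
Nmb: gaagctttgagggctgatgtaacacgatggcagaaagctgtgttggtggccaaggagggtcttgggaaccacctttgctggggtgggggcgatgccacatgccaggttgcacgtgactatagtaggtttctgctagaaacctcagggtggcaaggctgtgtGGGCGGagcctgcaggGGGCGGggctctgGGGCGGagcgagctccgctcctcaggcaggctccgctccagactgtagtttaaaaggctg

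Counted from the gene's start, Chat held CCAAT at positions -187 and -160, and Slc18a3 held GGGCGG at -158 and -79. In Cartpt the single marked motif was TGACGTCA, at -142. Nmb held GGGCGG at -89, -73 and -60. The letters TATAAA, found in 12.9% of windows, were searched too and are in none of the 4 windows shown. A match is a description of the letters, and the counts were made on the earlier build Rnor 6.

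Across 16150 tested genes, 3869 differed between core and shell at an adjusted p under 0.05 (24.0%). Of these, 1905 were higher in shell (11.8% of genes tested) and 1964 in core (12.2%), and the median over all genes was a log2 difference (shell minus core) of 0.0043. Most differences were small. The median absolute log2 difference of the called genes was 0.27, with 686 genes at 1.5-fold or more and 272 at 2-fold or more, 157 of these higher in shell and 115 in core. The difference ran one way in all 16 rats for 407 genes (2.52%), 190 higher in shell and 217 in core. Without male rat 1, 4143 genes were called (25.7%), and 3677 were called in both fits in the same direction. In bulk tissue, more cells of a type and more RNA per cell cannot be told apart for any of these genes.

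**Figure D1:**
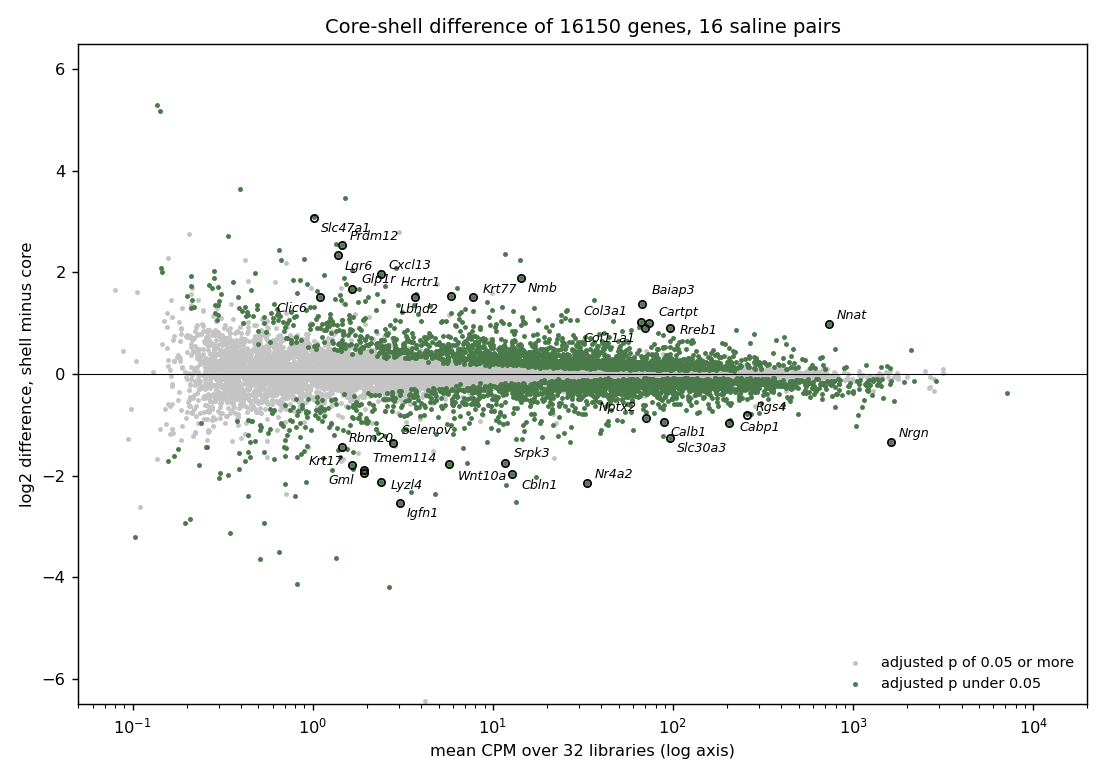
Log2 difference (shell minus core, vertical axis) against mean CPM over the 32 libraries (horizontal log axis) for the 16150 tested genes, with called genes in green and named genes circled. Nnat and Nrgn, at the right of the plot, lay at 0.98 and -1.34.

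Each pair was then set against the other 15. Of the genes called without a rat, the share that differed in the same direction in that rat had a median of 83.2%. It was 57.8% in male rat 1, 67.8% in female rat 11, 72.2% in female rat 15 and 73.5% in female rat 14, and at most 90.5%, in female rat 12. Region was not the main axis of variation. The first principal component of the 500 most variable genes held 24.2% of the variance, of which 46.5% went with sex and 13.6% with region, and the second held 8.35%, of which 39.5% went with sex and 34.7% with region. Over all tested genes the second component held 9.16%, of which 56.5% went with region and 16.9% with sex, and after variance stabilization 10.9%, of which 53.7% and 31% did.

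**Figure D2:**
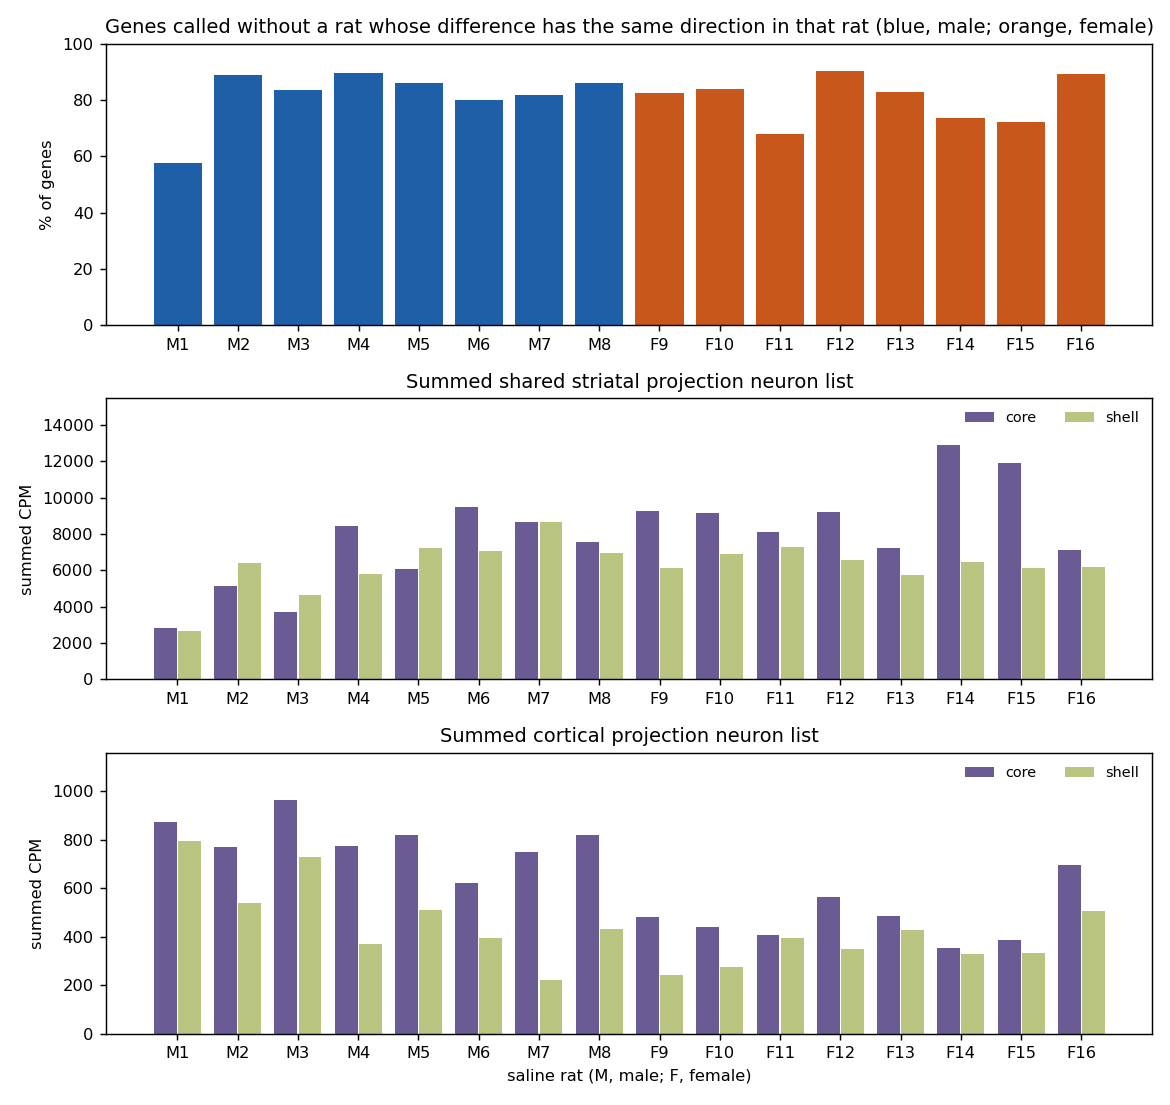
Bars by saline rat (M1 to M8 male, F9 to F16 female): the share of genes (%) that differ in a rat in the direction found in the other 15, and the summed CPM of the shared striatal list and of the cortical list in core and shell. M1 has the lowest share (57.8%) and the lowest striatal sums, and the cortical sum is higher in core than in shell in all 16 rats.

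Several neuropeptides and their receptors differed. Among 24 tested neuropeptide genes 7 were higher in shell and 3 in core (median log2 difference 0.15), the latter near the 12.2% of all genes, and among 25 receptor genes 13 were higher in shell, where 11.8% of all genes were, and 2 in core (median 0.39). Without male rat 1 the counts were 7 and 4 for the peptides and 17 and 2 for the receptors. The summed level of the receptor genes was higher in shell in all 16 rats, at 456 to 545 CPM in core and 541 to 673 in shell.

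Nmb (ENSRNOG00000011011, chromosome 1), neuromedin B, a bombesin-like peptide whose promoter is shown above, had its lowest, median and highest values at 1.89, 6.33 and 12.5 CPM in core and 6.14, 21.2 and 35.4 CPM in shell. It was higher in shell in all 16 rats, and 14 shell libraries lay above every core library (log2 difference 1.90, SE 0.16, adjusted p = 1.23e-07, 3.72-fold, 1.93 without male rat 1). Male rat 1 gave the lowest shell value. Nts (ENSRNOG00000004179, chromosome 7), neurotensin, a peptide that modulates dopamine signalling, lay at 3.7 to 34.5 CPM in core (median 13.6) and 0.332 to 71.6 in shell (median 39.7). Its difference was 1.05 (SE 0.19, adjusted p = 0.000467), in 15 of 16 rats, the exception being male rat 1, with 3.7 CPM in core and 0.332 in shell. Cartpt (ENSRNOG00000017712, chromosome 2), a peptide regulated by psychostimulants, ranged over 10.8 to 85.3 CPM in core (median 53) and 0.941 to 144 in shell (median 103). The same 15 of 16 rats had more in shell (log2 difference 1.01, SE 0.22, adjusted p = 0.00237), and male rat 1 again went the other way, with 10.8 CPM in core and 0.941 in shell.

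Some other peptide genes passed the test and some did not. Pmch, the precursor of melanin-concentrating hormone, was at 0.355 to 1.92 CPM in core (median 0.836) and 0.728 to 3.2 in shell (median 2.02), a log2 difference of 1.07 (SE 0.2, adjusted p = 0.000599). Gal, galanin, differed by 0.55 (adjusted p = 0.00506). Higher in core was Adcyap1, the PACAP precursor, at 3.17 to 31 CPM in core (median 13) and 0.7 to 29.3 in shell (median 5.86), with a log2 difference of -1.10 (SE 0.25, adjusted p = 0.00291). Cck, cholecystokinin, stood at medians of 310 CPM in core and 165 in shell and did not pass the test (-0.63, adjusted p = 0.0514), but did without male rat 1 (-0.72, adjusted p = 0.0263), as it did without male rat 7, female rat 11 or female rat 14 (adjusted p = 0.0197, 0.0319 and 0.0408). Of the opioid list 4 genes were tested and 1 passed, near the 24.0% of all genes called in either direction. Oprl1, the nociceptin receptor, differed by 0.33 (adjusted p = 0.0277), and Pnoc, the precursor of its ligand, by 0.22 (adjusted p = 0.209). Oprl1 missed the threshold without female rat 9, 12 or 16 (adjusted p = 0.0513, 0.055 and 0.0501) and in the 13 pairs that shared a prep batch (0.20, adjusted p = 0.116). Pdyn (dynorphin) and Pomc did not pass, at 0.21 (adjusted p = 0.208) and -0.18 (adjusted p = 0.322).

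Several receptors for feeding and arousal peptides were higher in shell. Hcrtr1 (ENSRNOG00000013838, chromosome 5), the orexin receptor 1, was at 0.951, 1.85 and 3.09 CPM in core and 1.75, 5.91 and 8.02 CPM in shell at the lowest, median and highest. All but 1 shell library lay above every core library (log2 difference 1.52, SE 0.18, adjusted p = 6.75e-06). Glp1r (chromosome 20), the GLP-1 receptor, was low, at 0.0514 to 2.86 CPM in core (median 0.639) and 0.388 to 3.54 in shell (median 2.54), and higher in shell in all 16 rats (log2 difference 1.68, SE 0.24, adjusted p = 3.73e-05). Mchr1, the receptor for melanin-concentrating hormone, was at 29.6 to 58.7 CPM in core (median 40.9) and 39.7 to 72 in shell (median 61.8). It too was higher in shell in every rat (log2 difference 0.52, SE 0.051, adjusted p = 6.64e-07), as was the melanocortin receptor Mc4r (0.75, SE 0.11, adjusted p = 5.54e-05). Ntsr1, a neurotensin receptor, differed by 1.18 (SE 0.21, adjusted p = 0.000281), Crhr2, a receptor for urocortins, by 0.69 (SE 0.12, adjusted p = 0.000262), and Calcr, the calcitonin receptor, by 1.69 (SE 0.5, adjusted p = 0.0169). Calcr values spread widely, from 0 to 13.8 CPM in core and 0.111 to 17.7 in shell, and were higher in shell in 13 rats.

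**Figure D3:**
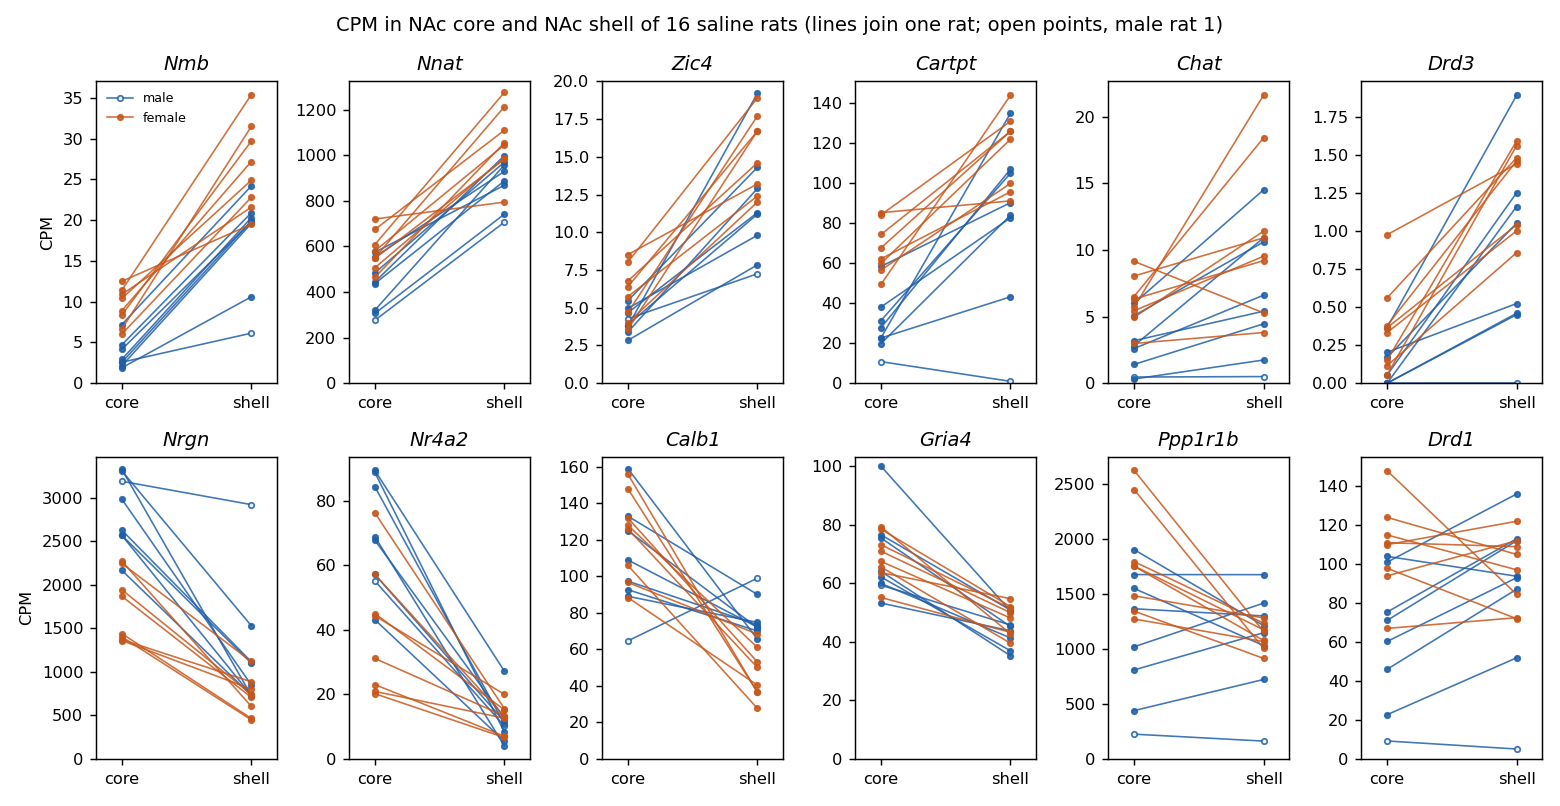
CPM in core and shell for 12 genes, lines joining the libraries of 1 rat (blue male, orange female, open points male rat 1). Nmb, Nnat and Zic4 rise from core to shell in all 16 rats and Nrgn, Nr4a2 and Gria4 fall in all 16, while lines for Drd1 and Ppp1r1b run both ways.

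Genes taken as candidates for the shell, among them several of those above, were called higher in shell in 9 of 9 tested (median 1.01, 1.15 without male rat 1), where 11.8% of all genes were. The list had 18 genes, and its choice drew on known shell markers, so its direction is not an independent result. Drd3 (ENSRNOG00000060806, chromosome 11), the D3 dopamine receptor, was near the detection limit in core, at 0 to 0.975 CPM in core (median 0.16), and at 0 to 1.89 in shell (median 1.11). Shell was higher in 15 rats, and Drd3 was at 0 in both libraries of male rat 1 (log2 difference 2.44, SE 0.37, adjusted p = 8.16e-05). Too few core libraries reached the minimum count, so Drd3 met the filter through shell and its difference is a description. Dlk1, a paternally expressed Notch-family ligand, differed by 1.37 (SE 0.25, adjusted p = 0.000526).

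The largest differences toward shell among genes of at least 1 CPM with a symbol and the same direction in at least 14 rats included transcripts near the detection limit in core. The minimum of 1 CPM applies to the mean over both regions, and 8 of the 12 genes named here had a core mean under it, so they passed through shell and their place in the order is a description. Slc47a1 (ENSRNOG00000057404, chromosome 10), an organic cation exporter, was at 0, 0.168 and 0.831 CPM in core and 0.424, 1.53 and 2.99 CPM in shell (lowest, median, highest). The difference was 3.08 (SE 0.39, adjusted p = 1.07e-05). In 15 of 16 rats shell was higher, and 14 shell libraries lay above every core library. Prdm12, a zinc finger factor of nociceptor and hypothalamic development, was at 0 to 1.85 CPM in core (median 0.211) and 0.0554 to 4.54 in shell (median 2.09), a log2 difference of 2.54 (SE 0.44, adjusted p = 0.000273). Lgr6, an R-spondin receptor, differed by 2.34 (SE 0.3, adjusted p = 1.58e-05), and Cxcl13, a B cell chemokine, by 1.97 (SE 0.18, adjusted p = 2.39e-07). Cxcl13 was at 0.45 to 2.08 CPM in core (median 0.776) and 1.27 to 5.5 in shell (median 4.06), higher in shell in all 16 rats. The same rule gave Krt77 (1.52), Lbhd2 (1.53), Clic6 (1.51) and the unnamed models AABR07040887.1 (1.89) and AABR07026539.1 (1.57), with adjusted p between 4.9e-07 and 0.0186.

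Among genes of at least 50 CPM, Nnat and Baiap3 were prominent. Nnat (ENSRNOG00000024923, chromosome 3), neuronatin, an imprinted proteolipid, was at 276, 526 and 720 CPM in core and 706, 975 and 1275 CPM in shell at the lowest, median and highest. Only 1 shell library lay within the range of the core libraries (log2 difference 0.98, SE 0.077, adjusted p = 1.01e-07). Baiap3, an exocytosis factor of dense-core vesicles, was at 19.4 to 85.7 CPM in core (median 33.7) and 45.4 to 182 in shell (median 99.6). The difference of 1.37 (SE 0.13, adjusted p = 4.58e-07) held in 15 of 16 rats, female rat 11 being the exception. Rreb1, a Ras-responsive zinc finger factor, differed by 0.90 (SE 0.1, adjusted p = 4.71e-06), and Col11a1, a fibrillar collagen, by 0.91 (SE 0.14, adjusted p = 0.000107).

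Zic genes, zinc finger factors of septal development, were higher in shell. Of 8 tested genes of the septal list 7 were higher in shell, beside 11.8% of all genes, and none in core (median 0.88, 0.94 without male rat 1). Zic4 (ENSRNOG00000014871, chromosome 8) was at 2.84, 4.68 and 8.52 CPM in core and 7.25, 13.1 and 19.2 CPM in shell (lowest, median, highest). It rose from core to shell in all 16 rats, with 14 shell libraries above every core library (log2 difference 1.42, SE 0.11, adjusted p = 1.17e-07). Zic1 (chromosome 8) was at 9.18 to 22.6 CPM in core (median 13.9) and 18.5 to 48.1 in shell (median 32.8), a difference of 1.16 (SE 0.13, adjusted p = 1.85e-06). Zic2 differed by 0.76 (SE 0.14, adjusted p = 0.000642). Esr1, the estrogen receptor alpha, was low, at 0.309 to 1.25 CPM in core (median 0.641) and 0.504 to 4.01 in shell (median 2.16), and higher in shell in all 16 rats (log2 difference 1.46, SE 0.2, adjusted p = 2.5e-05). The summed septal list was higher in shell in all 16 rats, at 37.1 to 69.9 CPM in core and 58.5 to 132 in shell. The shell borders the septum, and the part of septal tissue in the shell values was not tested.

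Of 10 cholinergic genes 4 were tested, and the 4 were higher in shell (median 0.91), beside 11.8% of all genes. Chat (ENSRNOG00000025012, chromosome 16) was at 0.316 to 9.14 CPM in core (median 5) and 0.498 to 21.6 in shell (median 9.35), a log2 difference of 1.03 (SE 0.17, adjusted p = 0.000229). Slc18a3 (chromosome 16) was at 0.823 to 23.8 CPM in core (median 9.13) and 0.996 to 41.7 in shell (median 18.8), with 0.97 (SE 0.15, adjusted p = 8.82e-05). Since both come from 1 locus, reads may be divided between them with uncertainty. The choline transporter Slc5a7, on another chromosome, differed by 0.85 (SE 0.15, adjusted p = 0.000411). All 3 were higher in shell in 15 of 16 rats, and the ranges overlapped. The summed medians were lower in males than in females, at 16.3 and 30.6 CPM in core and shell of males and 34.5 and 54.2 in those of females. Slc17a8, the vesicular glutamate transporter 3, differed by 0.43 (adjusted p = 0.0226) with the rat as a block and by 0.40 (adjusted p = 0.134) without. Of other interneuron genes, Nos1, the neuronal nitric oxide synthase, was higher in shell (0.85, SE 0.13, adjusted p = 0.000108) and Pvalb, parvalbumin, in core (-0.37, SE 0.1, adjusted p = 0.013, and adjusted p = 0.062 without the block). Over the 10 tested genes of the interneuron list 3 were called in each direction, and without male rat 1 there were 3 higher in shell and 4 in core.

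On the core side 12 genes were named by the same rule, of which 6 had a shell mean under 1 CPM. Igfn1 (ENSRNOG00000026087, chromosome 13), an immunoglobulin and fibronectin domain protein, was at 1.31, 5.26 and 9.11 CPM in core and 0.118, 0.743 and 2.82 CPM in shell (lowest, median, highest). All 16 rats had more in core, and 13 core libraries lay above every shell library (log2 difference -2.53, SE 0.3, adjusted p = 5.59e-06). Nr4a2 (ENSRNOG00000005600, chromosome 3), the orphan nuclear receptor Nurr1, of dopamine neurons and of claustrum and deep cortex, was at 20.2 to 89.3 CPM in core (median 56.1) and 4.05 to 27.2 in shell (median 12.1). All 16 rats had more in core (log2 difference -2.15, SE 0.2, adjusted p = 2.65e-07). Th and Slc6a3 were near 0 in both regions, and the cells behind the Nr4a2 difference were not tested. Cbln1, a synaptic organizer of the cerebellin family, was at 4.93 to 40.1 CPM in core (median 22.2) and 2.75 to 10.2 in shell (median 4.18), with -1.97 (SE 0.26, adjusted p = 2.25e-05). Srpk3 (-1.75, SE 0.18, adjusted p = 7.69e-07), Wnt10a (-1.77, SE 0.2, adjusted p = 3.16e-06) and Selenov (-1.36, SE 0.14, adjusted p = 1.16e-06) were also higher in core in every rat, and so was Lyzl4 (-2.13). The rule further gave Gml (-1.95), AC129815.1 (-1.90), Tmem114 (-1.88), Krt17 (-1.80) and Rbm20 (-1.44), with adjusted p between 2.42e-05 and 0.00777.

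Among genes of at least 50 CPM, Nrgn and Slc30a3 were named on the core side with 4 others. Nrgn (ENSRNOG00000010688, chromosome 8), neurogranin, a calmodulin-binding postsynaptic protein, was at 1359, 2258 and 3326 CPM in core and 449, 772 and 2920 CPM in shell at the lowest, median and highest. It was higher in core in all 16 rats (log2 difference -1.34, SE 0.12, adjusted p = 2.35e-07), and 14 shell libraries lay below every core library. The highest shell value was that of male rat 1. Slc30a3, the synaptic zinc transporter, was at 28.4 to 232 CPM in core (median 135) and 8.25 to 213 in shell (median 57.3), a log2 difference of -1.25 (SE 0.26, adjusted p = 0.00129). Cabp1, a calcium-binding regulator of calcium channels, differed by -0.97 (SE 0.079, adjusted p = 1.18e-07), Rgs4, a regulator of G protein signalling, by -0.80 (SE 0.069, adjusted p = 1.74e-07), and Nptx2, a pentraxin that clusters AMPA receptors, by -0.87 (SE 0.093, adjusted p = 1.66e-06), each in all 16 rats. Calb1 (ENSRNOG00000007456, chromosome 5), calbindin, the classic marker of the core, was at 64.7 to 159 CPM in core (median 117) and 27.7 to 99 in shell (median 67). It was higher in core in 15 of 16 rats, male rat 1 being the exception (log2 difference -0.94, SE 0.16, adjusted p = 0.000243, -1.04 without that rat).

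Genes of cortical projection neurons moved with these in part. Of 15 listed genes 4 were tested (median -0.62), and 3 were higher in core, beside 12.2% of all genes. These were Slc30a3, Lmo3, a LIM-only factor (-0.67, adjusted p = 7.58e-07), and Nptx1, a neuronal pentraxin (-0.57, adjusted p = 0.0081). The fourth, Cux2, differed by 0.14 (adjusted p = 0.323). Cux2 was higher in shell in every female and in male rat 6, and higher in core in the other males. In females alone, 1 gene of the list was called higher in shell and 2 in core. Without the block Nptx1 missed the threshold (-0.50, adjusted p = 0.0517). The summed list was higher in core in all 16 rats, at 354 to 964 CPM in core and 222 to 793 in shell, and at 871 and 793 in male rat 1, whose striatal sums were lowest. The part of cortical tissue in the core values was not tested. Of 6 candidate core genes, 3 were higher in core (4 without male rat 1) and 1 in shell (median -0.34), beside 12.2% and 11.8% of all genes. Wfs1, the wolframin gene, was the one higher in shell, in all 16 rats (0.67, SE 0.1, adjusted p = 7.21e-05).

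**Figure D4:**
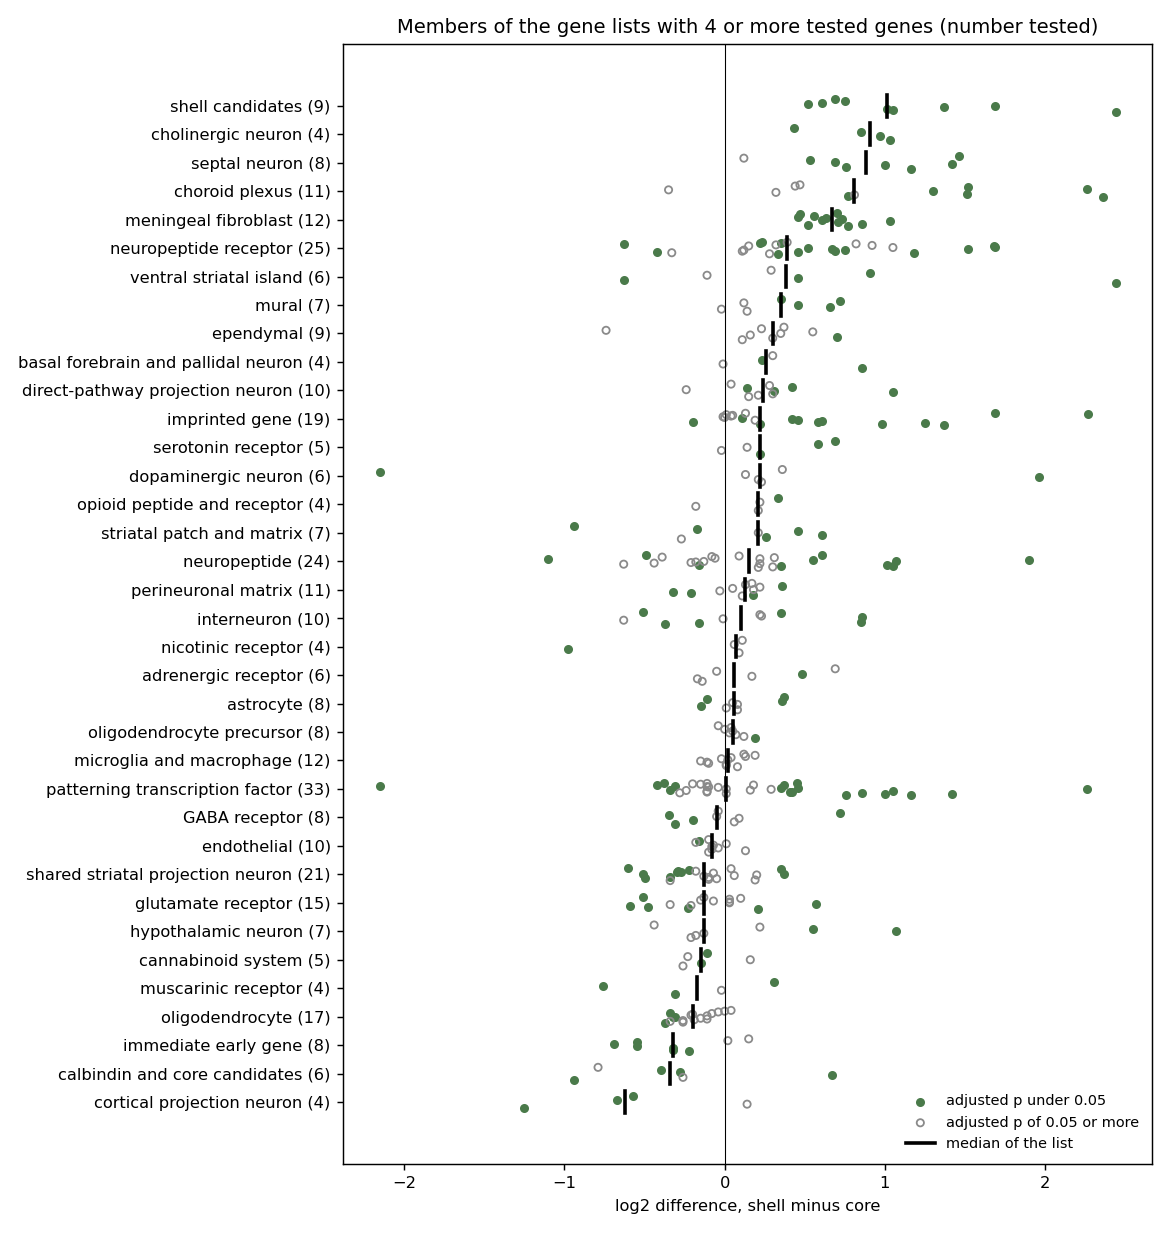
Log2 difference (shell minus core, horizontal axis) of each tested member of the gene lists with 4 or more tested genes, with filled points for an adjusted p under 0.05 and a bar at the list's median. Medians run from -0.62 for the cortical list to 1.01 for the shell candidates, beside 0.0043 over all genes.

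For 14 genes (0.0867%) the core and shell libraries did not overlap at all. They were singled out after their values were seen. Higher in core were Plcb1, a phospholipase C, at 66.5 to 129 CPM in core and 42.8 to 62.1 in shell, and Itpr1, the type 1 IP3 receptor, at 459 to 677 and 286 to 424. Camk4, a calcium/calmodulin-dependent kinase, was at 20.3 to 39.9 and 10.4 to 19.9, and Robo2, a Slit receptor, at 92.6 to 148 and 56 to 83.4. Plcb1, Itpr1 and Camk4 act in succession in the release of stored calcium and its nuclear signalling. Zfp180 and LOC100125362 completed the core side. Higher in shell were Il16, at 6.76 to 12.7 in core and 14.3 to 25.5 in shell, Fbxo10, at 26.3 to 35.9 and 37.5 to 62.6, Tmem130, at 471 to 636 and 638 to 969, and Glud1, the mitochondrial glutamate dehydrogenase, at 391 to 466 and 478 to 557. The other 4 were AABR07070307.1 and 3 genes without a symbol.

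Genes that define projection neurons were counted next. Of 21 shared striatal genes 2 were higher in shell and 8 in core (median -0.13), beside 11.8% and 12.2% of all genes, with 1 in shell without the block or without male rat 5. Ppp1r1b (chromosome 10), DARPP-32, was at 225, 1516 and 2624 CPM in core and 162, 1153 and 1675 CPM in shell (lowest, median, highest). Its ranges overlapped and it did not pass the test (log2 difference -0.34, SE 0.12, adjusted p = 0.0537), though it did without male rat 2, 3 or 5 (adjusted p = 0.0253, 0.0153 and 0.0263). Arpp21, another cAMP-regulated phosphoprotein, differed by -0.51 (SE 0.089, adjusted p = 0.000303) and Rasd2, a striatal small G protein, by -0.50 (SE 0.11, adjusted p = 0.00202). Scn4b, a sodium channel subunit, differed by -0.60 (SE 0.16, adjusted p = 0.00927), and by -0.59 (adjusted p = 0.0811) without the block and -0.47 (adjusted p = 0.0667) in the 13 pairs of a shared batch.

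Of 10 direct-pathway genes 4 were higher in shell, where 11.8% of all genes were, and none in core (median 0.24), and without male rat 1 there were 4 higher in shell and 1 in core. In males 5 were called higher in shell (median 0.48), beside 5.95% of all genes, and in females 2 (median 0.06), beside 5.32%, and the summed list was higher in shell in 8 of 8 males and 4 of 8 females. The difference between the sexes was not tested for the list. Isl1, a homeodomain factor of D1 and of cholinergic neurons, was at 1.03 to 21 CPM in core (median 9.38) and 0 to 32.8 in shell (median 20.1), with 1.05 (SE 0.21, adjusted p = 0.000866). Chrm4, the M4 receptor, differed by 0.31 (SE 0.075, adjusted p = 0.00526). Drd1 itself was at 9.21 to 148 CPM in core (median 95.9) and 5.09 to 136 in shell (median 95.4), and its difference of 0.15 (SE 0.12, adjusted p = 0.418) did not pass the test, nor did that of Tac1, substance P (0.30, adjusted p = 0.0759). Tac1 and Pdyn passed in the 13 pairs of a shared batch, at 0.43 (adjusted p = 0.0157) and 0.37 (adjusted p = 0.0179), and Tac1 without female rat 14 or 15 (adjusted p = 0.0413 and 0.0388). On the indirect side, 3 genes were tested and 1 passed, beside 24.0% of all genes in either direction. Necab1, a calcium-binding protein, differed by -0.36 (SE 0.079, adjusted p = 0.00207), Drd2 by -0.34 (SE 0.14, adjusted p = 0.0768) and the adenosine receptor Adora2a by -0.27 (SE 0.14, adjusted p = 0.169). Drd2 passed without male rat 2 or 3 (adjusted p = 0.0321 and 0.02). All 3 were called higher in core without male rats 1, 2 and 3, the rats of lowest striatal sums in core, an alternative added after the data were seen.

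Other receptor families were mixed. Of the nicotinic list 4 subunits were tested. Chrna3 (chromosome 8), the alpha3 subunit, was low, at 0.505 to 2.64 CPM in core (median 1.66) and 0.292 to 2.38 in shell (median 0.732), and higher in core in 14 of 16 rats (log2 difference -0.98, SE 0.2, adjusted p = 0.000985). Chrnb2, the beta2 subunit of the main brain receptor, was at medians of 14.3 CPM in core and 15 in shell and differed by 0.06 (adjusted p = 0.761), and Chrna1 and Chrnb4 by 0.09 (adjusted p = 0.593) and 0.11 (adjusted p = 0.846). Among muscarinic receptors, Chrm3 (-0.76, SE 0.14, adjusted p = 0.000429) and Chrm1 (-0.31, SE 0.074, adjusted p = 0.00391) were higher in core. Gria4 (chromosome 8), an AMPA receptor subunit, was at 53.2, 66.5 and 99.9 CPM in core and 35.2, 45.4 and 54.7 CPM in shell at the lowest, median and highest. In each region 15 libraries lay outside the range of the other (log2 difference -0.59, SE 0.053, adjusted p = 2.65e-07). Gria3 followed (-0.48, SE 0.061, adjusted p = 1.31e-05), while Grin3a, an NMDA receptor subunit, was higher in shell (0.57, SE 0.097, adjusted p = 0.000229). Over the 15 glutamate receptor genes 2 were higher in shell and 4 in core (median -0.13), beside 11.8% and 12.2% of all genes, with 5 in core without male rat 1 and 1 in shell without the block. Of 8 GABA receptor genes 1 was higher in shell, near the share of all genes, Gabre (0.72, SE 0.15, adjusted p = 0.00105), and 3 in core, among them Gabrd (-0.35, SE 0.067, adjusted p = 0.0006). Serotonin receptors Htr7 (0.69, SE 0.14, adjusted p = 0.00141) and Htr6 (0.58, SE 0.098, adjusted p = 0.000225) were higher in shell. Htr2c, at 0.22 (adjusted p = 0.0348), was too, but missed the threshold without the block (0.26, adjusted p = 0.244) and without 1 of 9 rats (males 2, 4, 5, 7 and 8, females 9, 10, 15 and 16, adjusted p = 0.0509 to 0.0727). Slc18a2, the vesicular monoamine transporter, was low, at 0 to 2.33 CPM in core (median 0.123) and 0 to 4.07 in shell (median 1.35), and higher in shell (1.96, SE 0.55, adjusted p = 0.0141).

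The other lists of neuronal genes are to be read beside the 11.8% of all genes that were higher in shell and the 12.2% higher in core, and several lay near those shares. Of 33 patterning transcription factors 13 were higher in shell and 5 in core (6 without male rat 1), with a median of 0.01. Genes of the ventral striatal islands were higher in shell in 3 of 6 and in core in 1 (median 0.38), those of striatal patch and matrix in 3 and 2 of 7 (median 0.21), and those of the perineuronal matrix in 2 and 2 of 11 (median 0.13), or 3 and 2 without male rat 1 and 2 and 1 without male rat 5. Basal forebrain and pallidal genes were higher in shell in 2 of 4 (median 0.26) and hypothalamic genes in 2 of 7 (median -0.13), with none higher in core. Of 6 dopaminergic genes 1 was called in each direction, and without male rat 1 there were 2 higher in shell and 1 in core. One of 6 adrenergic receptors, a call lost without the block and without male rat 5, and 1 of 2 genes of steroid receptors and aromatase were higher in shell, and 2 of 5 genes of the cannabinoid system in core (3 without male rat 1).

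Of 21 activity-regulated genes 8 were tested, of which 6 were higher in core, beside 12.2% of all genes, and none in shell (median -0.32, -0.37 without male rat 1). Dusp6, a phosphatase of ERK, was at 17.7 to 34.4 CPM in core (median 26.7) and 9.35 to 23.4 in shell (median 16.3), and lower in shell in all 16 rats (log2 difference -0.69, SE 0.071, adjusted p = 9.55e-07). Homer1, a postsynaptic scaffold, differed by -0.55 (SE 0.12, adjusted p = 0.00177) and Ier5 by -0.55 (SE 0.088, adjusted p = 0.000128). Npas4 differed by -0.32 (adjusted p = 0.0275), and missed the threshold without the block (adjusted p = 0.116), in the 13 pairs of a shared batch (adjusted p = 0.101) and without male rat 8, female rat 9 or female rat 15 (adjusted p = 0.0547, 0.0554 and 0.056).

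Imprinted genes, expressed from 1 parental allele, included 11 higher in shell (10 without male rat 1) and 1 in core among 19 tested (median 0.22), beside 11.8% and 12.2% of all genes. Besides Nnat, Dlk1 and Calcr, Grb10, an insulin receptor adaptor, was at 59.8 to 124 CPM in core (median 79.8) and 80.4 to 181 in shell (median 129) and was higher in shell in all 16 rats (log2 difference 0.58, SE 0.043, adjusted p = 1.01e-07). Magel2, of the Prader-Willi region, was at 5.14 to 35 CPM in core (median 12.4) and 8.36 to 70.8 in shell (median 32.3), with 1.25 (SE 0.13, adjusted p = 1.1e-06). Asb4, a gene of hypothalamic neurons, differed by 2.27 (SE 0.46, adjusted p = 0.00111). Snrpn, also of the Prader-Willi region, went the other way (-0.20, SE 0.044, adjusted p = 0.00213). The sum of the list was higher in shell in 15 of 16 rats, at 2466 to 3327 CPM in core and 3161 to 4398 in shell.

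Markers of non-neuronal cells moved with the regions in part, where 11.8% of all genes were higher in shell. All 12 meningeal fibroblast genes were higher in shell (median 0.67). Col1a1, type I collagen, was at 18.6 to 63 CPM in core (median 43.1) and 40.1 to 108 in shell (median 77.8), with 0.86 (SE 0.13, adjusted p = 5.77e-05), Col3a1 differed by 1.03 (SE 0.16, adjusted p = 9.61e-05) and Igf2, a growth factor of meninges and choroid plexus, by 0.61 (SE 0.13, adjusted p = 0.00156). The summed list was 234 to 834 CPM in core and 452 to 1419 in shell, higher in shell in 15 of 16 rats. Of 7 mural genes 4 were higher in shell (5 without male rat 1), Tagln by 0.66 (adjusted p = 0.00685). Of 11 choroid plexus genes 6 were higher in shell (median 0.81). Aqp1, a water channel, was at 3.28 to 20.3 CPM in core (median 8.38) and 6.78 to 48.2 in shell (median 21.1), with 1.30 (SE 0.19, adjusted p = 4.92e-05), and Otx2, a homeodomain factor, differed by 2.26 (SE 0.44, adjusted p = 0.00089). Ttr, transthyretin, the most abundant choroid plexus transcript, was at 354 CPM in the shell of male rat 5 and at most 3.65 in every other library (log2 difference 2.36, SE 0.77, adjusted p = 0.0309), and without male rat 3 or female rat 13 its adjusted p was 0.0503 and 0.0618. Without male rat 5 the Ttr difference was 1.72 (adjusted p = 0.024). Without male rat 5 the choroid plexus count was 5.

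The oligodendrocyte, microglia and astrocyte lists had medians between -0.20 and 0.06. Of 17 oligodendrocyte genes 4 were higher in core, beside 12.2% of all genes, and none in shell (median -0.20, and -0.12 without male rat 1). Mbp, myelin basic protein, was at 6504 to 9688 CPM in core (median 7816) and 3053 to 7903 in shell (median 6698), with -0.37 (SE 0.11, adjusted p = 0.0141), and adjusted p = 0.0531 in the 13 pairs of a shared batch. Male rat 1 had the lowest oligodendrocyte sum in shell, 5235 CPM against 15715 in its core. Of 12 microglia genes edgeR and DESeq2 each called 0 (median 0.02), with 3 at an unadjusted p under 0.05 in edgeR, and of 8 astrocyte genes 2 were called in each direction (median 0.06), beside 24.0% of all genes in both directions together, with 1 in shell without the block and 1 in core without male rat 5. Of 10 endothelial genes 1 was higher in core and none in shell, a call that was lost without the block and without male rats 1, 2 and 3. Of 9 ependymal genes 1 was higher in shell (median 0.30, and 2 genes without the block), as was 1 of 8 oligodendrocyte precursor genes (median 0.05, and 2 genes without male rat 1). Whether the meningeal, choroid plexus or septal genes had a part in the other differences was not tested.

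Males and females were then fitted separately. In 8 male pairs 2120 genes were called (13.1%) and in 8 female pairs 1756 (10.9%). The lists shared 861 genes, 858 in the same direction, which made up 40.6% of the male and 49.0% of the female calls. A test of the difference between the sexes called 25 genes (0.155%), 11 with a difference further toward shell in females and 14 in males. All 25 were also called without male rat 1, when 259 genes were. The count was 226 without male rat 6, 84 without female rat 16, 27 without male rat 4 and 1 to 8 without any other rat. DESeq2 called 322, and edgeR without the rat as a block called 0, with 1285 genes at an unadjusted p under 0.05.

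**Figure D5:**
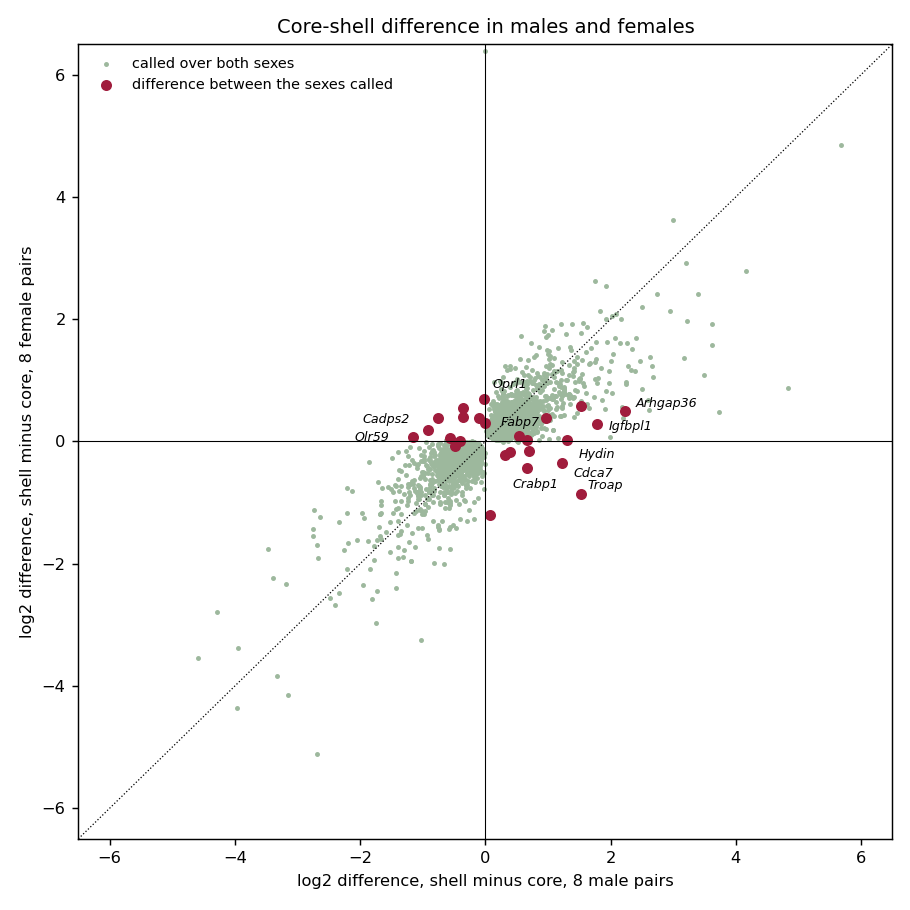
Log2 difference (shell minus core) in 8 female pairs (vertical) against 8 male pairs (horizontal) for genes called over both sexes (green) and the 25 genes whose difference differed between the sexes (red). Olr59 and Cadps2 differ in males and lie near 0 in females, as does Hydin on the other side.

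Among genes with a symbol, Olr59 and Cadps2 had the smallest p for this difference. Olr59 belongs to the olfactory receptors, a family of similar copies among which reads may be divided with uncertainty. It was at 7.14 to 24.1 CPM in male core and 3.3 to 18.4 in male shell, and at 3.59 to 7.07 and 4.25 to 8.82 in females. It was higher in core in all 8 males (-1.16, SE 0.14) and differed by 0.07 (SE 0.12) in females, a difference between the sexes of 1.23 (adjusted p = 0.0216). Cadps2, a dense-core vesicle priming factor, had medians of 81.5 and 43.1 CPM in core and shell of males and 32 and 35.2 in females. The differences were -0.92 and 0.18 (between the sexes 1.10, adjusted p = 0.0273). The opioid-like receptor gene Oprl1 differed by -0.03 in males and by 0.69 in females, where all 8 pairs were higher in shell (adjusted p = 0.0467).

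Of the 21 shared striatal genes, 3 were called higher in shell and none in core in males (median 0.11), beside 5.95% and 7.18% of all genes, and none in shell and 13 in core in females (median -0.36), beside 5.32% and 5.55%. These counts come from separate fits, the difference between the sexes was not tested for the list, and 0 of these genes were among the 25. The summed list was higher in core in all 8 females, with medians of 9184 CPM in core and 6340 in shell, and in 4 of 8 males, with medians of 6820 and 6700. Indirect-pathway genes had medians of 0.07 in males and -0.62 in females. Shell candidates were called in 8 and 7 of 9 genes, septal genes in 5 and 7 of 8, and cholinergic genes in 4 and 1 of 4.

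The comparison was repeated in 15 NIC rats, leaving out female rat 1, whose core library had Th at 333 CPM, against at most 3.82 in the other 15 core libraries of NIC rats. These rats received NIC at 0.4 mg/kg in place of SAL. Fitted by sex, 396 genes were called in NIC males and 1915 in NIC females, against 2120 and 1756 in SAL males and females. Over both sexes of NIC rats, 2925 of 16156 genes were called (18.1%). Of the 3861 saline calls tested there, 3753 (97.2%) had the same sign, 1973 (51.1%) were called in the same direction and 1 in the opposite one, while 75.1% of all genes tested in both had the same sign. Those shared calls were 67.5% of the NIC calls. Nmb differed by 1.69 in the NIC rats (SE 0.18, adjusted p = 7.49e-06), Nnat by 0.94 (SE 0.094), Zic4 by 1.53 (SE 0.2) and Drd3 by 1.89 (SE 0.39). On the core side Igfn1 differed by -3.13 (SE 0.33), Nrgn by -1.14 (SE 0.19) and Nr4a2 by -1.72 (SE 0.24). Shell candidates were called in 9 of 9 genes and septal genes in 6 of 8, but meningeal genes in 3 of 12 (median 0.29). Of 7 mural genes, 0 were called higher in shell and 1 in core (median 0.01), where 4 were higher in shell in SAL rats. Of 10 endothelial genes 5 were called higher in core, against 1 in SAL rats. Ependymal genes went from 1 to 6 of 9 called higher in shell, and Chrna3 from -0.98 to -0.16 (adjusted p = 0.63). Whether NIC and SAL rats differ in the core-shell difference was not tested here.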

How the data were processed

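RNA of NAc core and NAc shell from 16 SAL rats was analysed as 32 libraries, paired by the animal numbers in the labels. The authors trimmed paired-end reads with fastp 0.20.0, quantified them with Salmon 0.12.0 on Rnor 6, and summarised transcripts by gene with tximport. What they deposited is a table of estimated counts, in whole numbers and not normalized. The table holds 17637 genes, and 0 columns lacked a sample. Symbols and chromosomes came from the paper's supplementary tables of genes, partly chosen on these libraries, and cover 7899 genes (44.8%). RefSeq promoters were matched by symbol.

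Tested were genes that exceeded a count of 10, scaled by DESeq2 size factors, in 3 or more of the 32 libraries, with edgeR 4.0.16 (R 4.3.3, TMM, quasi-likelihood fit and test, rat as a block), with Benjamini-Hochberg adjusted p under 0.05 as the threshold. A positive log2 difference is higher in shell. CPM use the TMM factors (in the check of labels, plain totals), and log2 CPM of single pairs a prior count of 2. CPM are not divided by gene length, so levels of different genes were not compared. Values under 1 CPM rest on few reads. Sex differences were tested as the interaction of sex and region. Named genes were, among genes with a symbol, called, at a mean of 1 CPM or more and in the same direction in at least 14 pairs, the 12 of largest fold each way, and the 6 each way at 50 CPM or more. Up to 6 members of each list with the smallest p or for which the list is named were added, and up to 5 genes for the sex difference. A few genes that the rule names are not reported here. The members and the 40 lists were chosen with earlier results of these data known, so no list count is independent evidence. Of 572 listed genes, 310 had a symbol and passed the filter.

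Libraries of 1 rat come from the same animal by the labels. Over genes centred within sex and region, the median correlation of the libraries of a rat was 0.0955, against -0.0143 for other rats, and 7 of 16 core libraries correlated best with the shell library of their own rat. The p-values measure the spread between rats. On simulated counts for 16150 genes, the fit recovered 85% of log2 changes of 1.0 and 69% of those of 0.5 among 200 changed genes, with 8 false calls, and 0 calls with none changed. Genes were drawn independently there and few were changed, unlike in the data, so this gives no rate of false calls for the data. Alternatives were DESeq2 1.42.0 and its size factors, other filters, prep batch as a covariate, pairs of a shared batch, no block, each sex alone and each rat left out. The VTA libraries were used in the check of labels only.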

Additional observations from a re-analysis of the deposited data

Results flagged for a closer look

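Pair differences of 117 named genes and the shares by left-out pair were searched, in 8 rats of 1 sex at a time, for a rat standing far from the other 7. Chance alone would flag about 5% of groups, but the groups share rats and are not independent, so no excess was tested. Such a rat occurred in 25 of 236 groups. Male rat 1 was the rat in 6 of them: Cartpt (log2 difference, shell minus core, -3.38), Isl1 (-3.47), Nts (-3.13), Col11a1 (-1.01) and Rreb1 (-0.55), and the share of genes that followed the other rats (57.8%). Female rat 11 stood apart for Baiap3 (-0.39), Ier5 (0.44), Magel2 (-0.12), Nnat (0.14), Slc18a3 (-0.77) and Tagln (-1.39). Nnat was higher in shell in this rat as in the other females, and the other 5 genes went against them. Male rat 7 had the lowest values for Cck (-4.20), Slc30a3 (-4.38), Nptx1 (-2.67) and Cadps2 (-1.78), and its shell library had the lowest cortical sum of all, 222 CPM against 748 in its core. Ttr differed by 10.44 in male rat 5, and its fitted difference without that rat was 1.72 (adjusted p = 0.024).

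Single genes stood apart in other rats. These were Chrna1 (1.29) and Itpr1 (-0.81) and Plcb1 (-1.12) in male rat 4, Chrna1 (0.49) in female rat 16, Cux2 (0.51) in male rat 6, Krt17 (1.15) in female rat 13, Oprl1 (1.58) in female rat 14 and Zic2 (2.00) in female rat 15. The difference between the sexes was called for 25 genes by the interaction test. Among named genes it was 1.10 for Cadps2, 1.23 for Olr59 and 0.72 for Oprl1 (female minus male, log2 scale). The cause of these differences was not tested, and sex and prep batch cannot be told apart.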

How the results depend on the processing

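The 3869 calls became 2120 in males only (961 higher in shell, 1159 in core) and 1756 in females only (859 and 897), with 8 pairs each. At 1.5-fold or more there were 686 (381 and 305) and at 2-fold or more 272 (157 and 115), by construction. DESeq2's size factors gave 3892 calls, DESeq2's own test 4178, prep batch as a covariate 3917, the 13 pairs of a shared batch 3359, no filter 3826 and a stricter filter 3694. Leaving out 1 rat gave 3446 to 4143, and leaving out male rats 1, 2 and 3, chosen after seeing the data, 3434. Without the replicate block, 3416 genes were called (1788 higher in shell, 1628 in core). The 36 named genes were chosen as called on these same pairs, so their stability under alternatives is no independent evidence. Among them, 857 of 864 values under alternatives kept direction and call and 7 lost the call, all in fits of 1 sex. These were AC129815.1, Calb1, Cartpt and Clic6 in males and AABR07026539.1, Clic6 and Rbm20 in females. The cause was not tested.

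The 25 genes with a sex difference became 0 without the replicate block (1285 at an unadjusted p under 0.05, against 1878 with it) and 322 with DESeq2, and 1 to 259 with a rat left out. The count was 259 without male rat 1, 226 without male rat 6, 84 without female rat 16 and 27 without male rat 4. It was 1 to 8 without any other rat. The adjusted p of the 25 genes lay between 0.0216 and 0.0472, and why the count changed with the rat left out was not tested. Genes called for the core-shell difference in NIC rats numbered 396 in males only, 1915 in females only and 2316 with all 16 pairs. The first component held 22.3% of the variance over all genes and 42.6% after variance stabilization. Of 80 list counts, 3 moved by over 1.5 times without male rat 1 (direct-pathway genes higher in core 1 instead of 0, dopaminergic 2 instead of 1 and oligodendrocyte precursor 2 instead of 1 higher in shell), and 6 without the block, each by 1 gene (shared striatal, astrocyte, glutamate receptor, adrenergic receptor and ependymal higher in shell, endothelial higher in core).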

Other observations

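The genes below were picked after their values were seen, some from the 25 genes with a sex difference and some outside them, so they stand for no gene group. The count of 25 itself changed with the rat left out and with the block. Igfbpl1, a gene of newborn neurons, was at 0.514 to 9.06 CPM in male core (median 3.56) and 5.37 to 17 in male shell (median 11.2), and had medians of 11.2 in female core and 12.8 in female shell. Male core was the group with the lowest median. The log2 difference was 1.79 in males (SE 0.27) and 0.28 in females (SE 0.1), which differed with an adjusted p of 0.0467. Cdca7, a cell cycle gene, differed by 1.23 in males, in all 8 pairs, and by -0.35 in females (adjusted p of the difference = 0.0467). Troap, a spindle gene, showed 1.52 and -0.86 (adjusted p = 0.0472). For Arhgap36 the values were 2.23 and 0.50, for the retinoid-binding protein Crabp1 0.66 and -0.44, for Fabp7, of radial glia and astrocytes, 0.53 and 0.08, and for the cilium gene Hydin 1.31 and 0.02.

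The other genes picked missed the threshold for the difference. Top2a, topoisomerase II alpha, differed by 1.42 in males (adjusted p = 0.00468) and -0.56 in females (adjusted p = 0.247), with an adjusted p of 0.0547 for the difference and 0.0305 without male rat 1. Mki67 showed 1.02 and -0.80 (adjusted p of the difference = 0.162) and Cdk1 1.27 and -0.38 (adjusted p = 0.0844, and 0.0483 without male rat 1). Dcx, doublecortin, was higher in shell by 0.32 in males (adjusted p = 0.0104) and by 0.26 in females (adjusted p = 0.063, which misses the threshold), with an adjusted p of 0.927 for the difference. Sox11 showed 0.73 and 0.11 (adjusted p = 0.28). In NIC rats Cdca7 differed by 1.07 in males (adjusted p = 0.0476) and 0.45 in females (adjusted p = 0.298), and Igfbpl1 by 1.30 (adjusted p = 0.0626) and 0.84 (adjusted p = 0.00456). Also larger in NIC males than in NIC females were Troap 1.06 and 0.60, Top2a 0.99 and 0.25, Mki67 0.66 and 0.19, Hydin 0.78 and 0.55, Fabp7 0.46 and 0.32 and Crabp1 0.39 and -0.27. Larger in NIC females than in NIC males were Arhgap36 at 1.34 and 1.29, Cdk1 at 0.85 and 0.40, Sox11 at 0.61 and 0.11, and Dcx at 0.47 and 0.43. The difference between the sexes was not tested in NIC rats. Ependymal genes, of the ventricular wall, had a median difference of 0.91 over 9 tested genes in males and of -0.43 in females, and their part in these values was not tested.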
